A study of Mus musculus with 2 samples.

Results

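The kallikrein genes, Klk, encode secreted serine proteases. They were taken as every gene of the deposited count matrix whose symbol starts with Klk followed directly by a digit, which gave 37 of 55487 genes and left out Klkb1, the plasma kallikrein gene. All 37 lie in 1 run on the plus strand of mouse chromosome 7, at chr7:43690418-44229618 of the build mm10 (GENCODE release M21). The part nearer the start of the chromosome, chr7:43690418-43939639, holds 13 genes, Klk2-ps and Klk4 to Klk15. The other part, chr7:43942662-44229618, holds 24 genes, Klk1 and the Klk1b genes. Pseudogenes, whose symbols end in -ps, make up 11 of the 37.

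Kallikreins are made as inactive precursors that other proteases or kallikreins cut, and inhibitors such as the one encoded by Spink5 hold them in check. Klk1 cuts kininogens to release kinins, which widen blood vessels. The Klk1b genes are a rodent expansion best known from the salivary gland, while Klk5, Klk7 and Klk14 act in the shedding of the outer skin and Klk4 clears enamel matrix from growing teeth. Medullary thymic epithelial cells (mTEC) express many such genes of other tissues, with or without the transcription regulator Aire, and thereby show the proteins to developing T cells.

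The study measured RNA in single mTEC of C57BL/6 mice, sorted as mTEClo without surface Pdpn and CD104, in 1 droplet run of 10x Genomics 3' v3.1 chemistry. The 7 samples carried different hash tags, which are DNA-labelled antibodies that mark the sample of each cell. The 3 control samples (Hnf4ctrl) were Foxn1(cre/+) Hnf4a(fl/+) Hnf4g(+/-). The 4 mutant samples (Hnf4dTEC) were Foxn1(cre/+) Hnf4a(fl/fl) Hnf4g(-/-). Both groups carry Cre driven from Foxn1, a thymic epithelial gene. The controls also lack 1 copy of Hnf4g and have 1 floxed copy of Hnf4a. The Hnf4g null allele, as labelled, does not depend on Cre. Hnf4a and Hnf4g encode transcription factors of gut and liver. It is not labelled whether samples are separate animals, so p-values measure only the spread between these samples.

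The deposited annotation placed 9185 cells, 3295 of control and 5890 of mutant samples, in 15 classes. Each sample held 801 to 1652 cells and 10127838 to 25821970 UMIs, a UMI being the tag of 1 captured RNA molecule, and the medians ran from 11528 to 15053 UMIs per cell. Hnf4g RNA stood at 116 to 122 CPM (UMIs of a gene per 1000000 gene UMIs of the same cells) in controls and at 78.1 to 88.4 CPM in mutants, with no overlap. Hnf4a RNA was scarce, at 1.68 to 3.18 CPM in controls and 0.673 to 2.27 CPM in mutants. The deleted exons are not given in the labels, and a 3' tag outside them does not check the genotype.

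All levels are given as CPM. Since 3' chemistry gives 1 tag per molecule, whatever the transcript length, CPM values of different genes are on 1 scale. The Klk genes together gave 90097 UMIs or 676 CPM, and 42.3% of cells had at least 1 Klk UMI. The UMIs were unevenly spread, with 43.9% of them in the 91 cells that made up the top 1%. Klk1 and the Klk1b genes gave 81.4% of the Klk UMIs. Of the 37 genes, 27 reached 100 UMIs and are described singly, 8 had between 1 and 15 UMIs, and 2 pseudogenes, Klk1b28-ps and Klk1b23-ps, had 0 UMIs, which allows a level of up to 0.0225 CPM (3 UMIs, counting error only). The 8 were Klk15 and 7 Klk1b pseudogenes, of which Klk1b14-ps had the most.

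Bases just before the gene start are shown because genes of the same part of the locus tended to vary together over cell classes, as described below. RefSeq (GRCm38.p6) gave a promoter window, from 250 bases before the start to 50 after it, for 26 of the 37 genes. Each line holds the 90 bases before the RefSeq start, 5′ to 3′, for a selection of the genes where GENCODE has no exon over them. Others of this kind, such as Klk14 and Klk1b9, are left out. In 8 of the 26 genes, among them Klk1b16 and Klk1b26, a GENCODE exon of the same gene lies over these bases, and they are not shown. The stretches of Klk13 and Klk1 lie within introns of the antisense genes 2310002F09Rik and Gm10109, and the other 6 lie between genes. Capitals mark TTTAAA and TATAA, searched on both strands, where TTTAAA reads the same on either strand and overlapping matches run together.
Klk1b11, chr7:43995787-43995876, plus strand: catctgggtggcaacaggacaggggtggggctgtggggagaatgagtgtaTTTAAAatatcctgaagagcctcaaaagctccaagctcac
Klk1b3, chr7:44198101-44198190, plus strand: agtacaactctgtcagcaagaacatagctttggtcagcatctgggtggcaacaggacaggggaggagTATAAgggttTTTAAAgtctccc
Klk1b4, chr7:44207343-44207432, plus strand: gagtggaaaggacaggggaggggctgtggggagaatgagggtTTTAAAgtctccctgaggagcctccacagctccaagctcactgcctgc
Klk1b27, chr7:44052200-44052289, plus strand: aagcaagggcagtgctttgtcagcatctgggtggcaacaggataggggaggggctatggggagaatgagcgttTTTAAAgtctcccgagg
Klk1, chr7:44225270-44225359, plus strand: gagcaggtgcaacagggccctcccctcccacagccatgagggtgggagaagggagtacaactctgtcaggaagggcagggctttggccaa
Klk7, chr7:43811204-43811293, plus strand: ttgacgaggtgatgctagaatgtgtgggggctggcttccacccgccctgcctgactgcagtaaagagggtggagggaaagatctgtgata
Klk13, chr7:43712477-43712566, plus strand: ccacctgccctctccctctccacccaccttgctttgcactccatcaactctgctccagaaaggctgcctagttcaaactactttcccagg
Klk4, chr7:43881070-43881159, plus strand: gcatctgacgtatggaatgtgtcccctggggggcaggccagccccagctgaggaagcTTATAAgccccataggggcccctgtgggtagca

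TTTAAA was present in the window of 13 of the 14 Klk1 and Klk1b genes with a window, all but Klk1 itself, and in 0 of the 12 genes of the Klk4 to Klk15 part. Of all 32851 RefSeq promoter windows of this length, 13.2% hold it. In the Klk1b genes the match began 13 to 48 bases before the start, with a median of 36, except in Klk1b21, where it lies after the annotated start. TATAA was present in Klk1b3 and Klk1b5, and in Klk4, Klk10 and Klk15, against 24.9% of all windows. Over the 91 pairs of Klk1 and Klk1b genes, the 250 bases before the start matched at a median of 73.6% of positions. These pairs ranged from 44.5% to 89.7%, and Klk1 itself matched the Klk1b genes at 44.5% to 53.5%. The median was 47.6% over the 66 pairs of the other part and 48.1% over the 168 pairs between the parts. The 8 genes with their own GENCODE exon over the bases before the start are included in these counts and medians. A match is a description of these letters, and the files hold no measure of binding.

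Read counting bears on how far such similar genes can be told apart. In the last 500 bases of the transcripts, where 3' tags fall, at most 14.1% of 90-base windows were shared exactly with another gene. The highest share was between Klk1 and Klk1b5, followed by Klk1b21, Klk1b24 and Klk1b27, which share windows with each other, so the levels of these 5 genes are less certain. Antisense genes overlap Klk8 to Klk14 (2310002F09Rik), Klk15 to Klk1b9 (Gm44756) and Klk1 (Gm10109), and Gm44817 and Gm44814 overlap Klk14 and Klk13 on the same strand. Whether counting used the strand is not given in the sources used here.

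Klk RNA was concentrated in a few classes. The submitters named 1 class Klk-rich, and in it the summed Klk level was 14778 ± 3976 CPM (SD, n = 5 samples with at least 10 cells). Neuroendocrine cells followed with 2535 ± 792 CPM (SD, n = 7) and keratinocyte cells with 1476 ± 380 CPM (SD, n = 7). Aire-adjacent cells were at 1164 ± 504 CPM, secretory cells at 847 ± 639 CPM and Aire-expressing cells at 425 ± 129 CPM (SD, n = 7 each). Further down stood microfold cells at 199 ± 184 CPM (SD, n = 6), tuft cells at 89.2 ± 25.7 CPM and the immature class at 19.9 ± 7.76 CPM (SD, n = 7 each). In the full order, with muscle, ciliated, TA and transitional cells placed, only the ranges of Klk-rich and neuroendocrine samples did not overlap between neighbours. Entero-hepato and ionocyte cells, with 2 and 1 such samples, were not placed. All classes were made from the RNA of these same cells, Klk genes included, so differences between classes are a description and carry no test.

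**Figure D1:**
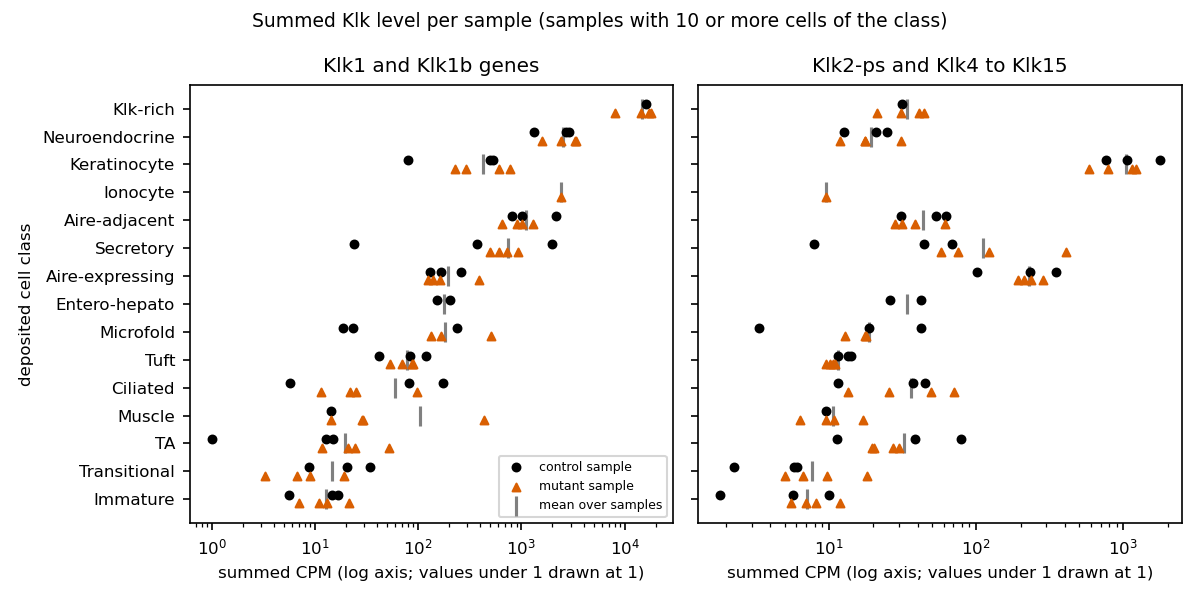
Summed Klk level of each class (CPM, log axis), 1 point per sample with at least 10 cells of the class, control and mutant samples in separate colours. The left panel sums Klk1 and the Klk1b genes, and the right panel sums Klk2-ps and Klk4 to Klk15. On the left, Klk-rich samples lie from 8121 to 18060 CPM, above all neuroendocrine samples at 1321 to 3351 CPM. On the right, keratinocyte samples lie from 586 to 1773 CPM, above all Aire-expressing samples at 101 to 348 CPM.

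The Klk-rich class held 1.36% of the cells and 28.5% of the Klk UMIs. Neuroendocrine cells were 7.70% of cells and held 26.8% of Klk UMIs, and keratinocyte cells were 8.36% of cells and held 16.5%. Tuft cells showed the reverse, with 44.8% of the cells and 5.30% of the Klk UMIs. At least 1 Klk UMI was found in 87.2% of Klk-rich, 81.0% of neuroendocrine, 70.3% of keratinocyte and 58.0% of Aire-expressing cells. With each cell thinned to 5000 UMIs these shares were 82.8%, 72.5%, 60.3% and 40.4%. The lowest shares were in the immature class, 13.0% and thinned 7.54% (median depth 8083 UMIs), and in the transitional class, 18.5% and thinned 6.54% (median depth 19911 UMIs). UMIs from free RNA were not separated from a cell's own, and shares near those of the immature and transitional classes are not read as expression.

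Single Klk-rich cells held many of the genes at once. They had a median of 7 Klk genes per cell, 5 after thinning, with up to 17 in 1 cell, and 54.9% of thinned cells had 5 or more. Keratinocyte cells had a median of 2 and neuroendocrine cells of 1. Among Klk-rich cells with at least 10 Klk UMIs, Klk1 led in 38 of 85 cells, Klk1b16 in 24 and Klk1b26 in 11, and 9 different genes led in some cell. In neuroendocrine cells, Klk1 led in 276 of 288. Aire-expressing cells were the most varied, since 25 genes led among 160 cells, Klk4 in 33, Klk14 in 24 and Klk1b9 in 15.

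The marker lists of other cell types were looked at in the Klk-rich class as a whole. Of 9 thymic epithelial markers 8 had a UMI, with Psmb11, a cortical gene, at 0. Their sum was 3868 CPM, against 3414 CPM in neuroendocrine, 3892 CPM in keratinocyte and 7733 CPM in Aire-expressing cells. In Klk-rich cells H2-Aa, an MHC class II gene, gave 1821 CPM of it, Krt8 1023 CPM and Epcam 762 CPM. Krt5, Cldn4, Aire, Krt14 and Foxn1 lay at 19.4 to 97.0 CPM. The salivary and pancreatic exocrine list had 4 of 7 genes with a UMI at a sum of 10.3 CPM, with Prol1, Smr2 and Cpa1 at 0. Fibroblast markers had 1 of 3 genes with a UMI, at 0.606 CPM, and endothelial markers 1 of 2, at 16.4 CPM with Cdh5 at 0. The 4 thymocyte markers summed to 9.70 CPM. High values came from red cell genes, at 5468 CPM for 2 of 2 genes. These were 6612 Hbb-bs and 2409 Hba-a1 UMIs, of which 1 cell held 8843, so nearly all came from that cell. Just 14 Klk-rich cells had any, with a median of 1 UMI. The B and myeloid list was also high, at 1875 CPM for 2 of 4 genes, nearly all of it Lyz2 at 1873 CPM with Cd79a at 0. By sample, the red cell genes stood at 23400 CPM in mutant 4, 723 CPM in mutant 1 and 0 to 46.1 CPM in the other 5, and Lyz2 at 732 to 3387 CPM in all 7.

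Klk RNA was present both in cells with those transcripts and in cells without them. The 111 Klk-rich cells with no Hbb-bs or Hba-a1 UMI had a pooled Klk level of 15762 CPM and the 14 with one had 14427 CPM, while the medians per cell were 8708 and 4511 CPM. The 64 cells with no Lyz2 UMI were at 13973 CPM and the 61 with one at 17274 CPM, with medians per cell of 7202 and 10874 CPM. The part of these transcripts in the Klk level was not tested.

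**Figure D2:**
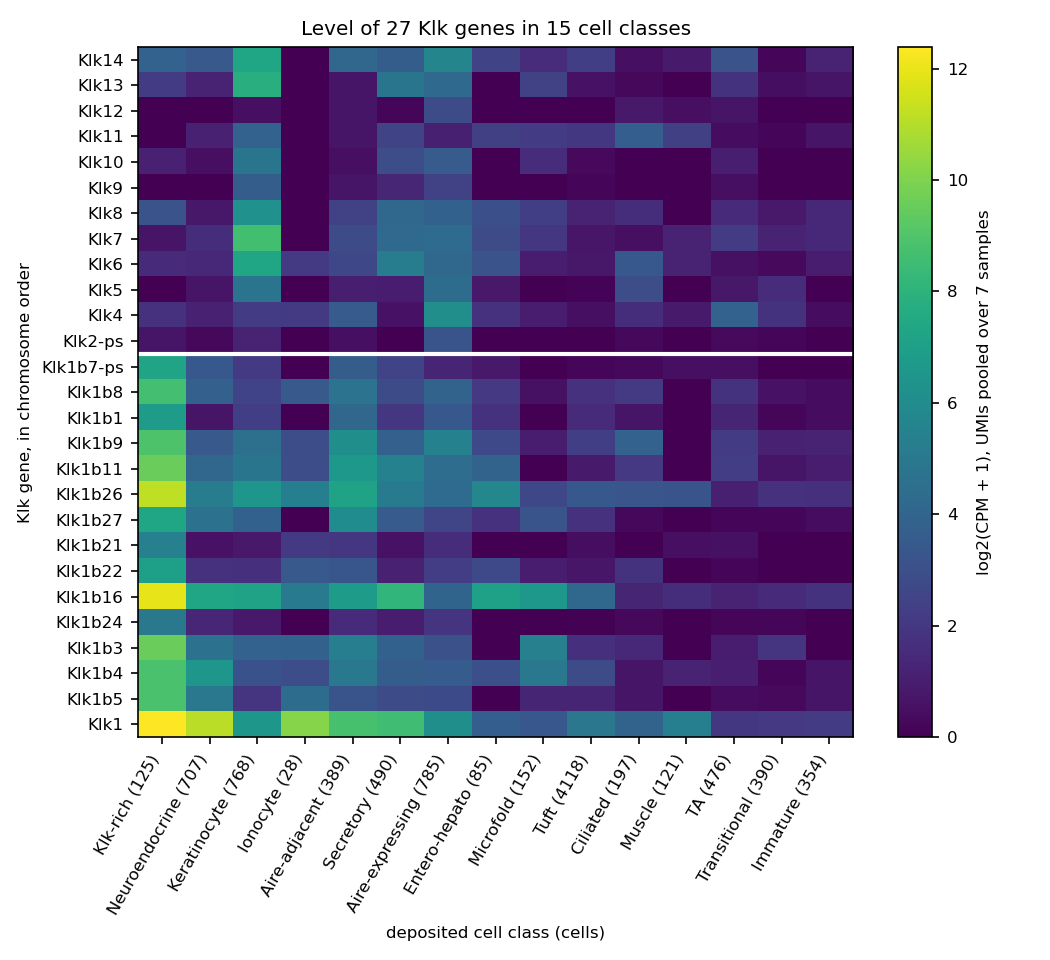
Level of the 27 Klk genes with at least 100 UMIs (rows, in chromosome order, the white line between the 2 parts of the locus) in the 15 classes (columns), as log2(CPM + 1) of the UMIs pooled per class. The 15 Klk1 and Klk1b genes are highest in the Klk-rich column, and the genes of the other part in the keratinocyte or Aire-expressing column.

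All 15 Klk1 and Klk1b genes with at least 100 UMIs had their highest pooled level in the Klk-rich class. Klk1, at chr7:44225360-44229618, had the most UMIs of the family, 37626, and was at 5364 CPM in Klk-rich cells. Its level by sample there was 3654, 23367 and 5301 CPM in controls 1 to 3 and 4264, 5930, 3471 and 4134 CPM in mutants 1 to 4. Controls 1 and 2 had only 8 and 6 Klk-rich cells, and the other 5 samples, with 16 to 33 cells, lay between 3471 and 5930 CPM.

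Klk1 also had a high level in neuroendocrine cells. It stood there at 1189, 2530 and 2395 CPM in controls and 1422, 1933, 2695 and 2754 CPM in mutants, so every sample was high. There, 526 of 707 cells had a Klk1 UMI, and the 5 highest cells held 12.9% of the UMIs. Klk1 made up 83.6% of all Klk UMIs of neuroendocrine cells against 34.4% in Klk-rich cells. The 28 ionocyte cells were at 1137 CPM of Klk1, but only 1 sample had at least 10 such cells. Aire-adjacent cells were at 437 CPM of Klk1, with a UMI in 117 of 389 cells, and the samples stood at 94.4 to 915 CPM without the highest cell of each. In secretory cells few cells carried the level: 1 cell held 1263 of the 2322 Klk1 UMIs of its class, and secretory samples ran from 0 to 1729 CPM. The class named TA had the lowest pooled Klk1 level, 3.07 CPM.

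Klk1b16, at chr7:44136767-44141610, encodes gamma-renin of the submandibular gland and had 13021 UMIs. In Klk-rich cells it was at 250, 5957 and 3944 CPM in controls and 5317, 4811, 1174 and 4525 CPM in mutants. Control 1 was the low sample. Its next classes by pooled level were secretory cells at 282 CPM, neuroendocrine at 155 CPM, keratinocyte at 139 CPM, entero-hepato at 135 CPM, Aire-adjacent at 115 CPM and microfold at 97.3 CPM. It made up 29.9% of the Klk UMIs of secretory cells and 45.1% of those of microfold cells, against 25.0% in Klk-rich cells.

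Klk1b26, which encodes an EGF-binding protein and prorenin-converting enzyme, lies at chr7:44012168-44016968 and had 7009 UMIs. Klk-rich samples showed 220, 3316 and 2832 CPM in controls and 2548, 3112, 1011 and 2391 CPM in mutants. As for Klk1b16, control 1 with its 8 cells was lowest and mutant 3 next. Aire-adjacent cells came second for Klk1b26, at 141 CPM, which is 16.8-fold lower.

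The nerve growth factor subunits and the other EGF-binding proteins of the gland were also led by Klk-rich cells. Klk1b3 (gamma subunit) was at 755 CPM there and next at 40.6 CPM in microfold cells. Klk1b4 (alpha subunit) was at 461 CPM and next at 88.8 CPM in neuroendocrine cells. Klk1b9 was at 488 CPM in Klk-rich, 71.5 CPM in Aire-adjacent and 42.2 CPM in Aire-expressing cells, and Klk1b22 at 127 CPM in Klk-rich cells. All 4 genes thus had the same first class.

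The remaining Klk1b genes ran from 741 CPM in Klk-rich cells for Klk1b11 to 29.7 CPM for Klk1b24. Between them stood Klk1b5 at 450 CPM, Klk1b8 at 407 CPM, Klk1b27 at 155 CPM, the pseudogene Klk1b7-ps at 152 CPM, Klk1b1 at 113 CPM and Klk1b21 at 41.2 CPM. Klk1b27 was the least restricted, since its level in Aire-adjacent cells, 64.7 CPM, was 2.39-fold lower. Its Aire-adjacent samples ran evenly, from 48.0 to 89.9 CPM.

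The 12 genes of the Klk4 to Klk15 part with at least 100 UMIs behaved differently, with 9 highest in keratinocyte and 3 in Aire-expressing cells. Summed, the 13 genes of this part were at 1048 ± 394 CPM in keratinocyte cells and 229 ± 76.7 CPM in Aire-expressing cells (SD, n = 7 each), with sample ranges that did not overlap. In Klk-rich cells the sum was 33.6 ± 9.07 CPM (SD, n = 5), far under that of keratinocyte cells. It lay between the sums of Aire-adjacent cells, 43.6 CPM, and neuroendocrine cells, 19.4 CPM, so a low sum was not particular to the Klk-rich class.

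Klk7, the chymotrypsin-like enzyme of the outer skin, lies at chr7:43811294-43816359. Keratinocyte samples had 397, 295 and 507 CPM in controls and 480, 184, 221 and 609 CPM in mutants. Its pooled level of 396 CPM was 20.98-fold above the next class, Aire-expressing cells, and 195 of 768 keratinocyte cells had a Klk7 UMI.

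Klk13 was steadier over samples, at 290.5, 151 and 235 CPM in controls and 243, 283, 157 and 186 CPM in mutants among keratinocyte cells. Its pooled level there, 225 CPM, was 8.15-fold above that of secretory cells. Klk8, which encodes neuropsin, was also even, at 62.7 to 80.3 CPM in controls and 58.5 to 92.5 CPM in mutants. It was spread over 232 keratinocyte cells, and Klk13 over 274.

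Klk6, which encodes neurosin, depended on few cells. Keratinocyte samples showed 111, 61.5 and 481 CPM in controls and 160, 66.4, 30.3 and 84.3 CPM in mutants, and 1 cell held 446 of the 1557 UMIs. In secretory cells 1 cell held 202 of 218 Klk6 UMIs. Control 3 was the high sample for Klk6, and for Klk14, a trypsin-like skin enzyme, it was high as well: 127, 95.9 and 314 CPM in controls against 186, 125, 67.7 and 95.5 CPM in mutants. Klk14 had a second site in Aire-expressing cells, at 48.5 CPM pooled.

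The other keratinocyte genes were lower. Klk10 was at 26.7 CPM, Klk5 at 26.6 CPM, Klk11 at 13.7 CPM and Klk9 at 11.7 CPM. Klk5 and Klk11 were nearly as high elsewhere, Klk5 at 20.1 CPM in Aire-expressing and Klk11 at 11.96 CPM in ciliated cells.

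Klk4, the enamel protease, at chr7:43881160-43885804, was highest in Aire-expressing cells. Samples there showed 22.2, 54.5 and 75.3 CPM in controls and 96.1, 112, 58.1 and 44.5 CPM in mutants, and the groups overlapped. The pooled level of 68.9 CPM was 5.05-fold above that of TA cells, and 151 of 785 Aire-expressing cells had a Klk4 UMI. Klk2-ps at 8.31 CPM and Klk12 at 6.32 CPM were also highest in this class. The enamel matrix genes Amelx, Enam and Ambn, substrates of Klk4, had their highest level in the same class, at 27.9, 3.71 and 3.30 CPM.

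**Figure D3:**
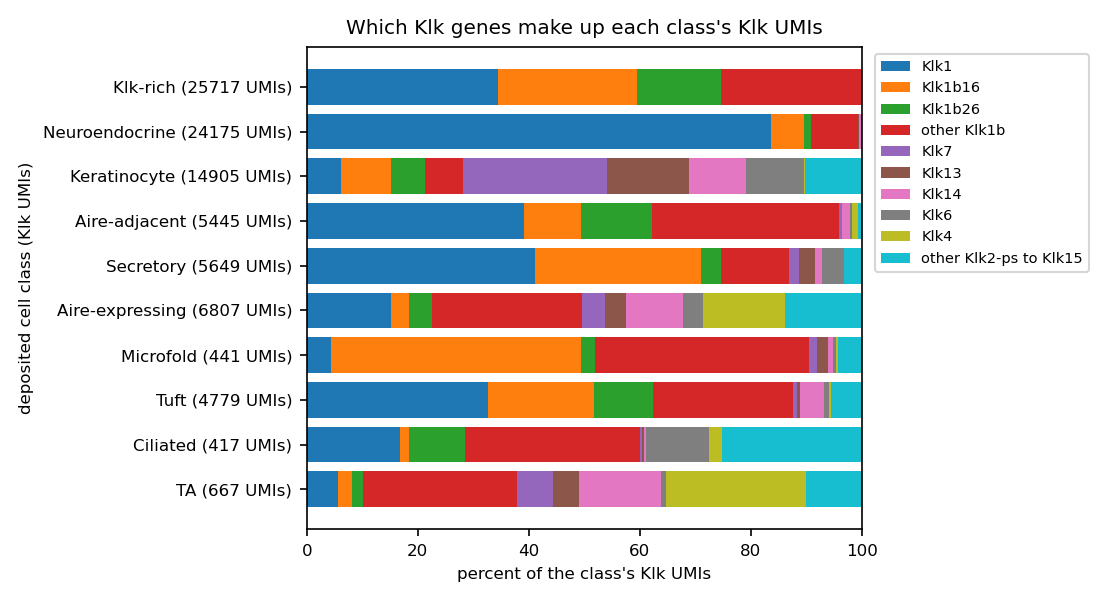
Share of the Klk UMIs of a class (percent, x axis) that each gene gave, for the 10 classes with at least 400 Klk UMIs; every bar adds to 100. Klk1 fills 83.6% of the neuroendocrine bar and 34.4% of the Klk-rich bar, and the keratinocyte bar is mostly genes of the Klk4 to Klk15 part.

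Over the 15 classes, genes of the same part tended to vary together, more evenly so within Klk1 and Klk1b. The Pearson correlation of log2(CPM + 1) had a median of 0.81 over the 105 pairs within Klk1 and Klk1b, with a range from 0.54 to 0.95. Within the other part it was 0.65 over 66 pairs, with a range from -0.27, for Klk11 with Klk4, to 0.98. Klk11 and Klk12 of that part correlated at 0.07. Between the parts the median was 0.18 over 180 pairs, with a range from -0.47 to 0.64. The points share cells, depth and the clustering, so these are descriptions with no p.

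Outside the family, the genes most like Klk1 over the 15 classes were Tmem163 (r = 0.92), Fbxl15, Gm9920, Aldh1a7 and Mia3. For Klk1b16 they included Slc25a35 (r = 0.94), Csf2rb2, 4930529K09Rik and Slamf9. Those for Klk1b26 were Lcp2 (r = 0.90), Gm17830, Enpp2, Ces5a and Smad4. No gene stood in more than 1 of the 3 lists.

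The genes that act with kallikreins had sites of their own. The 53 genes of this list comprise 14 activating proteases, 12 inhibitors, 20 substrates and receptors and 7 regulators. Among inhibitors, Spink5, whose product blocks skin kallikreins, was highest in secretory cells at 4693 CPM and next in keratinocyte cells at 2795 CPM, and Spink1, a trypsin inhibitor, was highest in entero-hepato cells at 6976 CPM, with secretory cells at 4410 CPM and Klk-rich cells at 3700 CPM. Spint2, an inhibitor of membrane proteases, was highest in microfold cells at 1460 CPM and stood at 495 CPM in Klk-rich cells, under its level of 701 CPM over all cells. Among substrates, Flg was at 812 CPM and Cdsn at 59.4 CPM in keratinocyte cells, their highest class, Dsg1a at 560 CPM in microfold cells and F2rl1, a protease-activated receptor, at 63.6 CPM in transitional cells.

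Among activating proteases, St14, which encodes matriptase, was at 200.1 CPM in ionocyte and 86.1 CPM in Klk-rich cells. Tmprss4 was highest in Klk-rich cells at 178 CPM, and Tmprss2 in entero-hepato cells at 198 CPM with Klk-rich cells next at 144 CPM. Among regulators, the nuclear receptor Nr3c1 was highest in keratinocyte cells at 116 CPM. Vdr, also a nuclear receptor, was highest in entero-hepato cells at 124 CPM, with keratinocyte cells next at 106 CPM.

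The genotype comparison asks whether the Klk genes differed between mutants, Hnf4a(fl/fl) Hnf4g(-/-), and controls, Hnf4a(fl/+) Hnf4g(+/-), all with Foxn1(cre/+). Over all cells it gave no call for any Klk gene. Klk1 was at 173, 383 and 361 CPM in controls and 186, 240, 277 and 330 CPM in mutants, or 306 ± 115 against 258 ± 60.8 CPM (SD, n = 3 and 4). Klk1b16 was at 19.5, 61.5 and 112 CPM in controls and 120, 93.1, 82.4 and 132 CPM in mutants, and Klk7 at 47.3, 22.5 and 38.0 against 43.9, 14.6, 19.5 and 44.9 CPM. For each of the 3 genes the groups overlapped.

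Counts were summed per sample and tested with edgeR's quasi-likelihood test with Benjamini-Hochberg adjustment over all 21187 genes that passed its filter on low counts, at a threshold of 0.05. All 27 genes with at least 100 UMIs passed the filter and 0 were called, where 39 of all genes, 0.184%, were. At an unadjusted p under 0.05 it was 0 of the 27 against 1408 of all genes (6.65%), and DESeq2 also called 0. Log2 fold changes, mutant over control, ran from -0.94 to 0.72 with a median of -0.08 (all genes 0.004), 17 lower and 10 higher. The split rested on control 3, without which 19 of the 27 were higher with a median of 0.31, and the sign of 21 of the 27 turned when some single sample was left out. Their standard errors, 0.18 to 0.83 with a median of 0.41, compare with a median of 0.17 over all genes. No gene of the 27 had groups that did not overlap, against 7.85% of all genes tested.

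The lowest p belonged to Klk14, with a log2 fold change of -0.58 ± 0.26 (SE) and an adjusted p of 0.785 in edgeR's test. Values further from 0 were Klk1b21 at -0.94 ± 0.62, Klk6 at -0.85 ± 0.46 and Klk1b16 at 0.72 ± 0.48. Klk10 stood at -0.52 ± 0.35 and Klk1b9 at -0.44 ± 0.27. Klk1 stood at -0.24 ± 0.29 and Klk1b26 at 0.03. The other skin and tooth genes gave Klk7 -0.22 ± 0.43, Klk13 -0.22, Klk8 -0.08, Klk5 0.28, Klk11 -0.06, Klk9 0.08, Klk12 -0.23, Klk4 -0.06 and Klk2-ps 0.38. Other Klk1b genes gave Klk1b24 0.43, Klk1b3 0.32, Klk1b8 0.24, Klk1b7-ps 0.19, Klk1b4 0.18, Klk1b5 -0.23, Klk1b11 -0.18, Klk1b1 -0.15, Klk1b27 -0.11 and Klk1b22 -0.07. In sums over all cells, fewer cells of a class and less RNA per cell cannot be told apart.

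**Figure D4:**
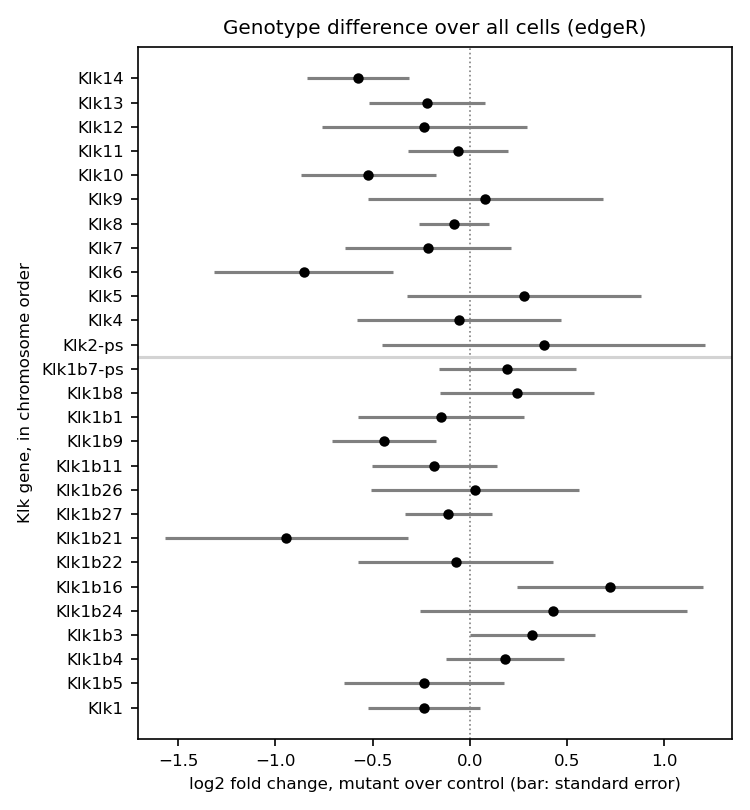
Log2 fold change, mutant over control, of the 27 Klk genes over all cells (x axis), with bars of 1 SE from edgeR's quasi-likelihood fit. The values run from -0.94 to 0.72 on both sides of 0, and 0 genes passed an adjusted p of 0.05.

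The share of Klk-rich cells was also compared. It was 0.999%, 0.656% and 2.09% in controls and 0.969%, 1.31%, 1.14% and 1.97% in mutants. The means were 1.25 ± 0.75% and 1.35 ± 0.44% (SD, n = 3 and 4), a difference of 0.098 percentage points (exact permutation test over 35 arrangements, two-sided, p = 0.8, with 0.0286 the smallest p possible). Without control 3 the difference was 0.519, and without control 2 it was -0.198 percentage points. The class was defined with these genes, so its size and their level are not separate measures.

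Within classes the same test was run for samples with at least 10 cells. It covered 11 classes and 109202 combinations of gene and class, of which 210 were called, 0.192%. Klk genes entered 83 of them, for 24 genes in 9 classes, and 0 were called by edgeR, with 9 at an unadjusted p under 0.05, where 6.38% of all combinations were. They split into 41 lower and 42 higher with a median of 0.01, and 5 had groups that did not overlap, against 7.8% of all combinations. DESeq2 called 1 Klk combination and 0.425% of all combinations. With no filter on low counts edgeR called 18 Klk combinations, and 1.04% of all combinations. More Klk genes entered each class then, such as 31 against 17 in keratinocyte and 28 against 9 in secretory cells. The 18 is thus not a count out of the 83.

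Klk1b16 in microfold cells came closest to a call. It was at 18.8, 6.70 and 65.3 CPM in controls and 133, 192 and 125 CPM in mutants 1 to 3, from 2 to 34 UMIs in a control and 37 to 55 in a mutant sample. No mutant overlapped a control. The log2 fold change was 2.05 ± 0.54 (SE), with an adjusted p of 0.0771 in edgeR's test, in a class where 3.03% of 4656 genes were called. Mutant 4 had 8 microfold cells and entered when 5 cells sufficed, which gave 2.31 and an adjusted p of 0.0389 (edgeR, 3.3% of genes called). Without control 3 the change was 3.53 with an adjusted p of 0.0098, and without each other sample in turn the adjusted p was 0.108 to 0.186 (edgeR). Without the highest cell of each sample, controls were at 3.99, 0 and 15.8 CPM and mutants at 43.2, 61.9 and 75.4 CPM.

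The same gene gave the highest fold change in secretory cells. Klk1b16 was at 7.90, 116 and 30.3 CPM in controls and 680.2, 125, 261 and 329 CPM in mutants, again with no overlap, although control 2 and mutant 2 were close. The log2 fold change was 2.65 ± 0.66 (SE), with an adjusted p of 0.375 in edgeR's test. Without the highest cell of each sample controls were at 4.17, 27.02 and 23.1 CPM and mutants at 433, 94.2, 203 and 253 CPM. In neuroendocrine cells the gene was at 14.97, 49.5 and 189.7 CPM in controls and 60.3, 116, 379.5 and 187.6 CPM in mutants, with overlap, a log2 fold change of 0.97 and an unadjusted p of 0.167 in edgeR's test. In keratinocyte cells the change was 0.73 ± 0.60 (SE), in Aire-adjacent cells 0.15 ± 0.54 and in tuft cells -0.18 ± 0.47, each with overlap. Differences between classes in this fold change were not tested.

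**Figure D5:**
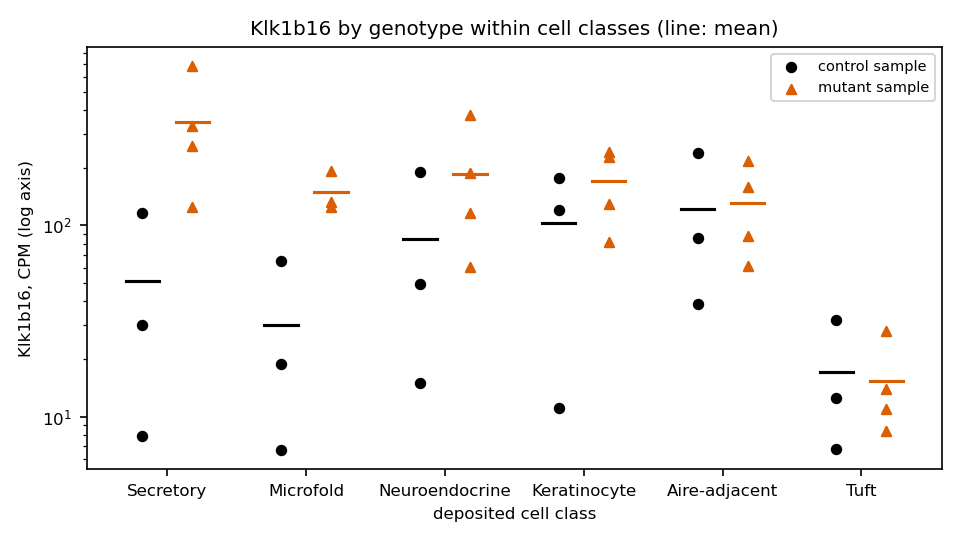
Klk1b16 level (CPM, log axis) by sample in 6 classes, control and mutant samples side by side. In secretory and microfold cells all mutant points lie above all control points, and in the other 4 classes the groups overlap.

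The other 7 combinations under an unadjusted p of 0.05 were spread over genes and classes. Klk4 in TA cells was at 2.27, 48.7 and 19.1 CPM in controls and 10.1, 2.77, 3.89 and 5.37 CPM in mutants, and the log2 fold change was -2.14 (edgeR, adjusted p = 0.879). Klk10 in keratinocyte cells was at 19.7, 60.2 and 48.7 CPM in controls and 17.6, 28.0, 16.2 and 7.52 CPM in mutants, a change of -1.29 (edgeR, adjusted p = 0.482). With the highest cell of each sample left out, its controls were at 14.8, 26.0 and 23.7 CPM. Its mutants were then at 13.1, 17.0, 13.0 and 3.05 CPM. Klk1 in Aire-adjacent cells was at 1287, 486 and 350 CPM against 525, 201, 404 and 140 CPM, a change of -1.15 (edgeR, adjusted p = 0.843). In each of these 3 the groups overlapped.

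Of the 7, 2 were in tuft cells, at low levels. Klk14 was at 5.09, 5.56 and 5.07 CPM in controls and 3.20, 2.86, 4.12 and 2.76 CPM in mutants, without overlap, and changed by -0.69 on the log2 scale (edgeR, adjusted p = 0.359). Klk1b9 was at 4.15 to 9.54 CPM in controls and 1.49 to 4.55 CPM in mutants, a change of -1.34 (edgeR, adjusted p = 0.325). Klk5 in Aire-expressing cells was at 0, 6.15 and 14.1 CPM in controls and 26.7, 15.8, 17.2 and 35.5 CPM in mutants, also without overlap, a change of 1.48 (edgeR, adjusted p = 0.954). Klk1b9 in ciliated cells, at -3.02 (edgeR, adjusted p = 0.99993), rested on 1 cell in each of 2 controls. The fifth combination without overlap was Klk1b3 in Aire-expressing cells at -0.72, with an unadjusted p of 0.166.

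By class, all 12 Klk genes tested in neuroendocrine cells were higher in mutants, with a median of 0.30 and a lowest adjusted p of 0.649 in edgeR's test. The count was 8 of 12 without control 1, without control 2, without mutant 2 or without mutant 4. Keratinocyte cells had 11 of 17 lower, Aire-expressing cells 10 of 19, tuft cells 9 of 13 and Aire-adjacent cells 5 of 9, while secretory cells had 6 of 9 higher. Some of these splits also turned with 1 sample left out. Without control 3, keratinocyte cells had 5 lower and 12 higher, and Aire-expressing cells 8 lower and 13 higher. Without control 1, Aire-adjacent cells had 5 lower and 7 higher. Genes counted in the same cells are not independent, and these counts carry no test. The Klk-rich class had too few control cells for the 10-cell minimum. At 5 cells, where 1 of 4427 genes (0.0226%) was called, Klk1 was at -1.39 and Klk1b11 at -1.24 (edgeR, adjusted p = 0.873 and 0.887), and Klk1b16 at 0.14. Control 2, with 6 cells and a summed Klk level of 43096 CPM, was the highest sample of the class.

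Of the genes that act with kallikreins, 47 of 53 were tested over all cells and 1 was lower in mutants, 0 higher, against 0.184% of all genes called. It was Mep1a, which encodes a subunit of the protease meprin, at 15.4, 15.1 and 22.5 CPM in controls and 5.66, 4.92, 3.44 and 6.34 CPM in mutants. The groups did not overlap, and the log2 fold change was -1.79 ± 0.22 (edgeR, adjusted p = 0.0384). Within classes 216 combinations were tested, 4 lower and 0 higher, against 0.192% of all combinations called. Of the 4, 3 were in microfold cells, where 3.03% of all genes were called. Mep1a fell by 3.35 on the log2 scale in microfold cells, from 213 to 240 CPM in controls to 14.4 to 28.0 CPM in mutants. Spink1 fell by 3.84 in keratinocyte cells, from 235 to 581 CPM in controls to 20.2 to 31.6 CPM in mutants, and by 4.14 in microfold cells, where Serpinb6a fell by 0.94 (edgeR, adjusted p = 0.00187, 0.0168 and 0.0368, and 0.000499 for Mep1a). Klk7 and Klk13, which were highest in keratinocyte cells, were tested and not called there.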

How the data were processed

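The deposited matrix holds UMI counts per gene and droplet barcode, as whole numbers. The authors made it with Cell Ranger and mapped to mm10; versions were Cell Ranger 6.1.0 and Seurat 4.0.2 per the submitters' processing notes, but Cell Ranger 7.0.0 per the matrix header. Of 18089 barcodes, the 9185 with a deposited class and hash sample were used; no further cell filter and no doublet caller was applied here, and how doublets were treated is not given in the sources used here. Counts were summed per sample, or per sample and class with at least 10 cells, and tested on those 7 sums with edgeR 4.0.16 (filterByExpr, TMM, quasi-likelihood, Benjamini-Hochberg, R 4.3.3), with DESeq2 1.42.0 as an alternative. Genes with at least 100 UMIs are described singly; a within-class fold change is given for those under an unadjusted p of 0.05 and for Klk1b16 in other classes, added after its values were seen. Like genes were the 5 with the highest correlation over classes, for the 3 Klk genes with most UMIs. Thinning to 5000 UMIs left out 192 control and 319 mutant cells. The genes and lists were chosen with earlier results of these data known. Alternatives changed size factors, filter, tool, cell minimum, replicate block, cells of mismatched hash tag (45 cells) and left out each sample. A few values of genes outside the family are not reported here.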

Additional observations from a re-analysis of the deposited data

Results flagged for a closer look

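Of 41 groups of 4 mutant samples looked at for a sample far from the others, 2 had one, and chance gives this in about 1 group in 20. The summed Klk level over all cells was 787.56 CPM in mutant 4, where the other 3 mutants lay at 580.5 to 588.5 CPM. Controls spanned 410.4 to 898.4 CPM, so mutant 4 lay inside their range. Klk1b9 over all cells was 19.1919 CPM in mutant 4, and 14.2 to 14.8 CPM in the other mutants. Mutant 4 also had the most Klk-rich cells of the mutants, 27 against 16 to 18, and its part in both values was not tested.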

How the results depend on the processing

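Over all cells 0 Klk genes were called under every alternative run. Within classes the count was 0 with the other size factors and without cells of mismatched hash tag. At a minimum of 20 cells it was also 0, and this minimum leaves 8 classes, without microfold, ciliated and TA cells. The count was 1 with DESeq2 and 1 at a minimum of 5 cells. With no filter on low counts it was 18, among more Klk combinations than the 83, where 1.04% of all combinations were called. When each sample was left out it was 0 to 1, the 1 arising without control 3. Klk1b16 in microfold cells was the gene in DESeq2 (2.14), at 5 cells (2.31) and without control 3 (3.53). The cause was not tested. The labels do not say whether replicate numbers pair the samples. Deviations of same-numbered control and mutant samples correlated at 0.30, 0.12 and 0.01. Those of samples with unlike numbers correlated at -0.44 to 0.50, so with so few samples these values cannot decide on pairing. With the replicate block the within-class count was 1, Klk1b16 in neuroendocrine cells at 1.24, and Klk11 (0.0082), Klk9 (-0.066), Klk4 (0.22) and Klk1b22 (0.041) changed sign over all cells. Without cells of mismatched hash tag Klk4 (0.044) and Klk1b26 (-0.052) did. Without the Klk-rich class the values were Klk1b8 -0.019, Klk1b1 0.14, Klk1b11 0.29, Klk1b26 -0.12, Klk1b22 0.59, Klk1b4 -0.016 and Klk1b5 0.28. Leaving out 1 sample, log2 fold changes over all cells crossed 0 for 21 of the 27 genes: Klk13 -0.47 to 0.22, Klk12 -0.57 to 0.89, Klk11 -0.23 to 0.28, Klk9 -0.35 to 1.12, Klk8 -0.21 to 0.075, Klk7 -0.46 to 0.018, Klk5 -0.13 to 1.36, Klk4 -0.52 to 0.49, Klk2-ps -0.083 to 2.94, Klk1b7-ps -0.042 to 0.79, Klk1b8 -0.066 to 0.76, Klk1b1 -0.50 to 0.53, Klk1b9 -0.67 to 0.00046, Klk1b11 -0.47 to 0.25, Klk1b26 -0.41 to 0.91, Klk1b27 -0.34 to 0.095, Klk1b21 -1.37 to 0.25, Klk1b22 -0.49 to 0.64, Klk1b24 -0.24 to 1.15, Klk1b4 -0.10 to 0.63, Klk1b5 -0.61 to 0.042. The difference in Klk-rich share ranged from -0.198 to 0.519 percentage points. Thinned to 5000 UMIs, the share of cells with a Klk UMI was 72.5% in neuroendocrine, 60.3% in keratinocyte, 51.4% in Aire-adjacent, 40.4% in Aire-expressing, 32.1% in entero-hepato, 23.4% in microfold, 21.2% in ciliated, 17.5% in muscle, 7.54% in immature, 13.6% in TA, 6.54% in transitional and 15.02% in tuft cells. With 3 and 4 samples the SE of a Klk gene had a median of 0.41 against 0.17 over all genes, which limits what these sums can show.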

Other observations

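The matrix also holds 8904 barcodes with no deposited class, which entered no comparison. Their summed Klk level was 682 CPM against 676 CPM in annotated cells, with a median depth of 5452.5 UMIs against 13024. A Klk UMI was found in 37.3% of them, and 144 had at least 100 Klk UMIs, against 203 annotated cells. The 3125 barcodes under 1500 UMIs were at 355 CPM, with a Klk UMI in 18.5% and none with 100 or more.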
